A study of Prunus persica and Prunus armeniaca with 129 samples.

Results

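The 100 genes described here had the most even RNA levels in floral buds of apricot and peach from the start of winter dormancy to bloom. Levels were in CPM, the reads counted for a gene divided by all counted reads of its library and multiplied by 1000000. The coefficient of variation (CV, the standard deviation over the mean) of the CPM was taken over libraries within each species, for the 7324 of 26872 listed genes that averaged at least 20 CPM in both species. Genes were ranked by the larger of their CVs, and the 100 lowest were kept. The members were thus chosen by the CVs of these libraries, and CVs are given as a description with no test.

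The apricot (Prunus armeniaca) libraries came from grafted trees of 4 genotypes in 1 French orchard, A2137 and A1956 (early blooming) and A660 and A1267 (late blooming). Floral buds were taken at 4 stages of chilling, counted in chill hours (CH, hours of cold exposure since autumn), which were 0, 100, 400 and 800 CH, and again when sepals and then petals became visible. At 800 CH the 5 libraries of A2137 and A1956 were of flowers. The peach (Prunus persica) libraries came from clones of 4 trees of an F2 population in the United States, A209 and A340 (low chilling requirement) and A318 and A323 (high chilling requirement), at 0, 100 and 600 CH, at 1000 CH in A318 and A323 only, and before bloom. Libraries of 1 genotype were clonal trees, so replicate spread holds differences between trees of 1 genotype and between library preparations. Each species was represented by 4 genotypes. The study found much ribosomal RNA in most peach libraries. Its share was a significant factor of the peach transcriptome variation there, with no significant interaction with genotype or time point.

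The ranking used the 123 libraries with at least 2000000 counts, 60 of apricot (7593825 counts in the smallest, a median of 1.41e+07) and 63 of peach (a median of 1.09e+07). Another 6 libraries, all of peach, were left out. For A323 at 100 and 600 CH the study's summary of replicate numbers differs from the labels, which put 4 libraries at 100 CH and 3 at 600 CH and were used here. The dormancy marker DAM6 (ppa010714m), which encodes a MADS-box transcription factor, had a median of 631 CPM at 0 CH and 0.831 CPM at petal visible in apricot, and 486 CPM at 0 CH and 27.8 CPM before bloom in peach. All 50 apricot and 99 peach replicate pairs differed by more than sampling noise, so each library was counted once. In 3 libraries, 7 or more members lay over 2-fold away from their species mean. They were peach A318 0 CH replicate 1 with 13 members, apricot A660 800 CH replicate 3 with 8 and peach A323 0 CH replicate 1 with 7, where 31.1%, 26.2% and 48.9% of all genes past the floor lay as far. Some counts that rest on these libraries are also given without them, and all other results include them.

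Winter dormancy in Prunus has a first phase, endodormancy, in which buds do not grow until enough cold has passed, and a second, ecodormancy, in which only the weather holds them back. The transcriptome is rewired through both phases and again as anthers, pollen and petals form. Genes whose RNA stays level through such a programme are sought as reference genes, against which other transcripts are measured, and are usually looked for among genes that every cell needs, such as those of the cytoskeleton, ubiquitination, protein folding and RNA handling. CPM is a share of a library's counts, so an even CPM is an even share, and in whole buds fewer cells of a type and less RNA per cell cannot be told apart.

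The members' median CV was 0.184 in apricot and 0.201 in peach, against 0.349 in apricot and 0.373 in peach for all genes past the floor. Their larger CV ran from 0.158 at rank 1 to 0.220 at rank 100. No gap marked the threshold. The last 3 members, Prupe.2G138100, Prupe.4G271100 and Prupe.5G092900, had values of 0.2198, 0.2199 and 0.2201, and the next 3 genes outside, Prupe.2G240000, Prupe.1G277000 and Prupe.1G076200, had 0.2204, 0.2208 and 0.2213. DAM4, DAM5 and DAM6 had CVs of 1.26, 1.47 and 1.58 in apricot and 0.858, 1.56 and 1.29 in peach.

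**Figure D1:**
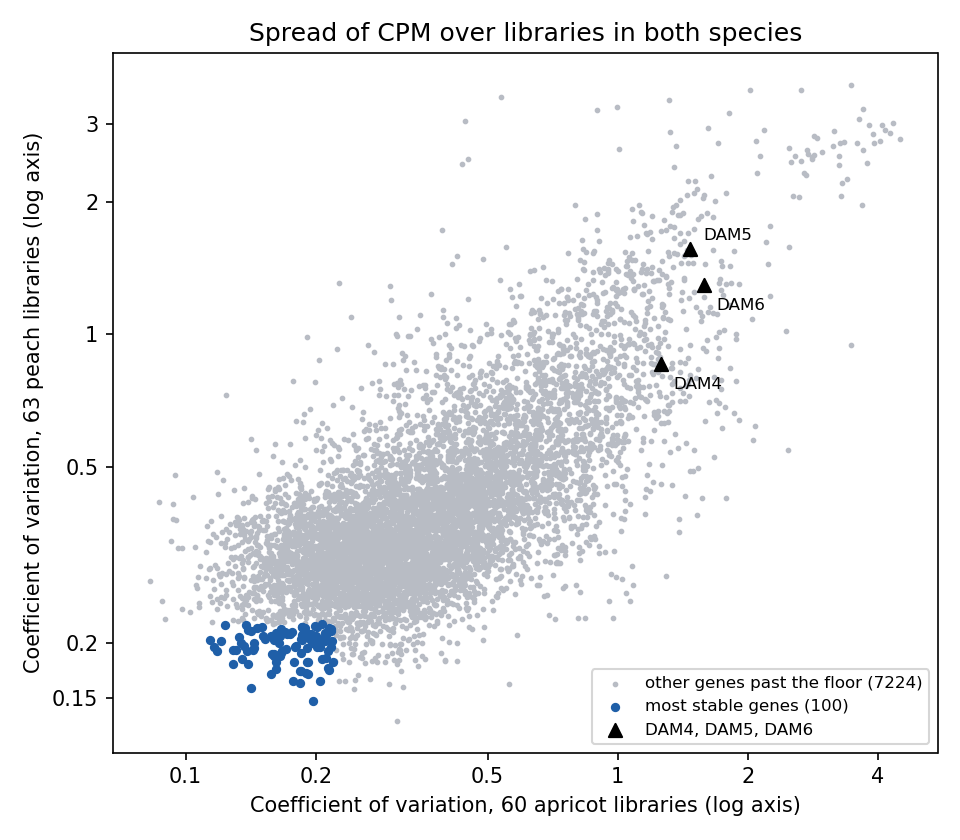
Coefficient of variation of CPM over 60 apricot libraries (horizontal, log axis) and 63 peach libraries (vertical, log axis) for each gene past the floor (grey), the 100 members (blue) and DAM4, DAM5 and DAM6 (triangles). The members fill the lower left corner up to 0.220 on both axes, and some grey genes below 0.220 in 1 species lie above it in the other.

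The first member, Prupe.3G238000, ranged over its apricot libraries from 124 to 256 CPM with a median of 194, and over its peach libraries from 146 to 306 CPM with a median of 222. Its apricot time point means were 180 ± 9.69 CPM at 0 CH (SD, n = 7), 189 ± 16.5 at 100 CH (n = 10), 182 ± 39.6 at 400 CH (n = 10), 185 ± 27.3 at 800 CH (n = 11), 218 ± 24.5 at sepal visible (n = 11) and 201 ± 17.6 at petal visible (n = 11). In peach they were 205 ± 28.3 CPM at 0 CH (SD, n = 14), 219 ± 25.4 at 100 CH (n = 15), 244 ± 51 at 600 CH (n = 15), 214 ± 29.8 at 1000 CH (n = 4) and 226 ± 21.9 before bloom (n = 15). The ranges of all time points overlapped in both species. The files pair no gene name with this ID.

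Prupe.6G316400, the second, had apricot libraries between 53.9 and 111 CPM and peach libraries between 60.4 and 133 CPM. Prupe.5G107100, the third, had apricot libraries between 64.6 and 146 CPM and peach libraries between 60.6 and 171 CPM. The fourth, Prupe.5G129300, averaged 98.7 CPM in apricot and 83.3 CPM in peach. Ranks 5 to 10 were held by Prupe.7G172700, Prupe.7G224200, Prupe.6G033700, Prupe.6G068000, Prupe.5G044200 and Prupe.8G212700. In all 10 the highest library was between 1.85 and 3.20 times the lowest within a species. The members with the highest CPM, which also grows with transcript length, were Prupe.3G032300, Prupe.3G239000, Prupe.1G472900, Prupe.6G236300 and Prupe.1G251500, with a mean over both species between 338 and 698 CPM.

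**Figure D2:**
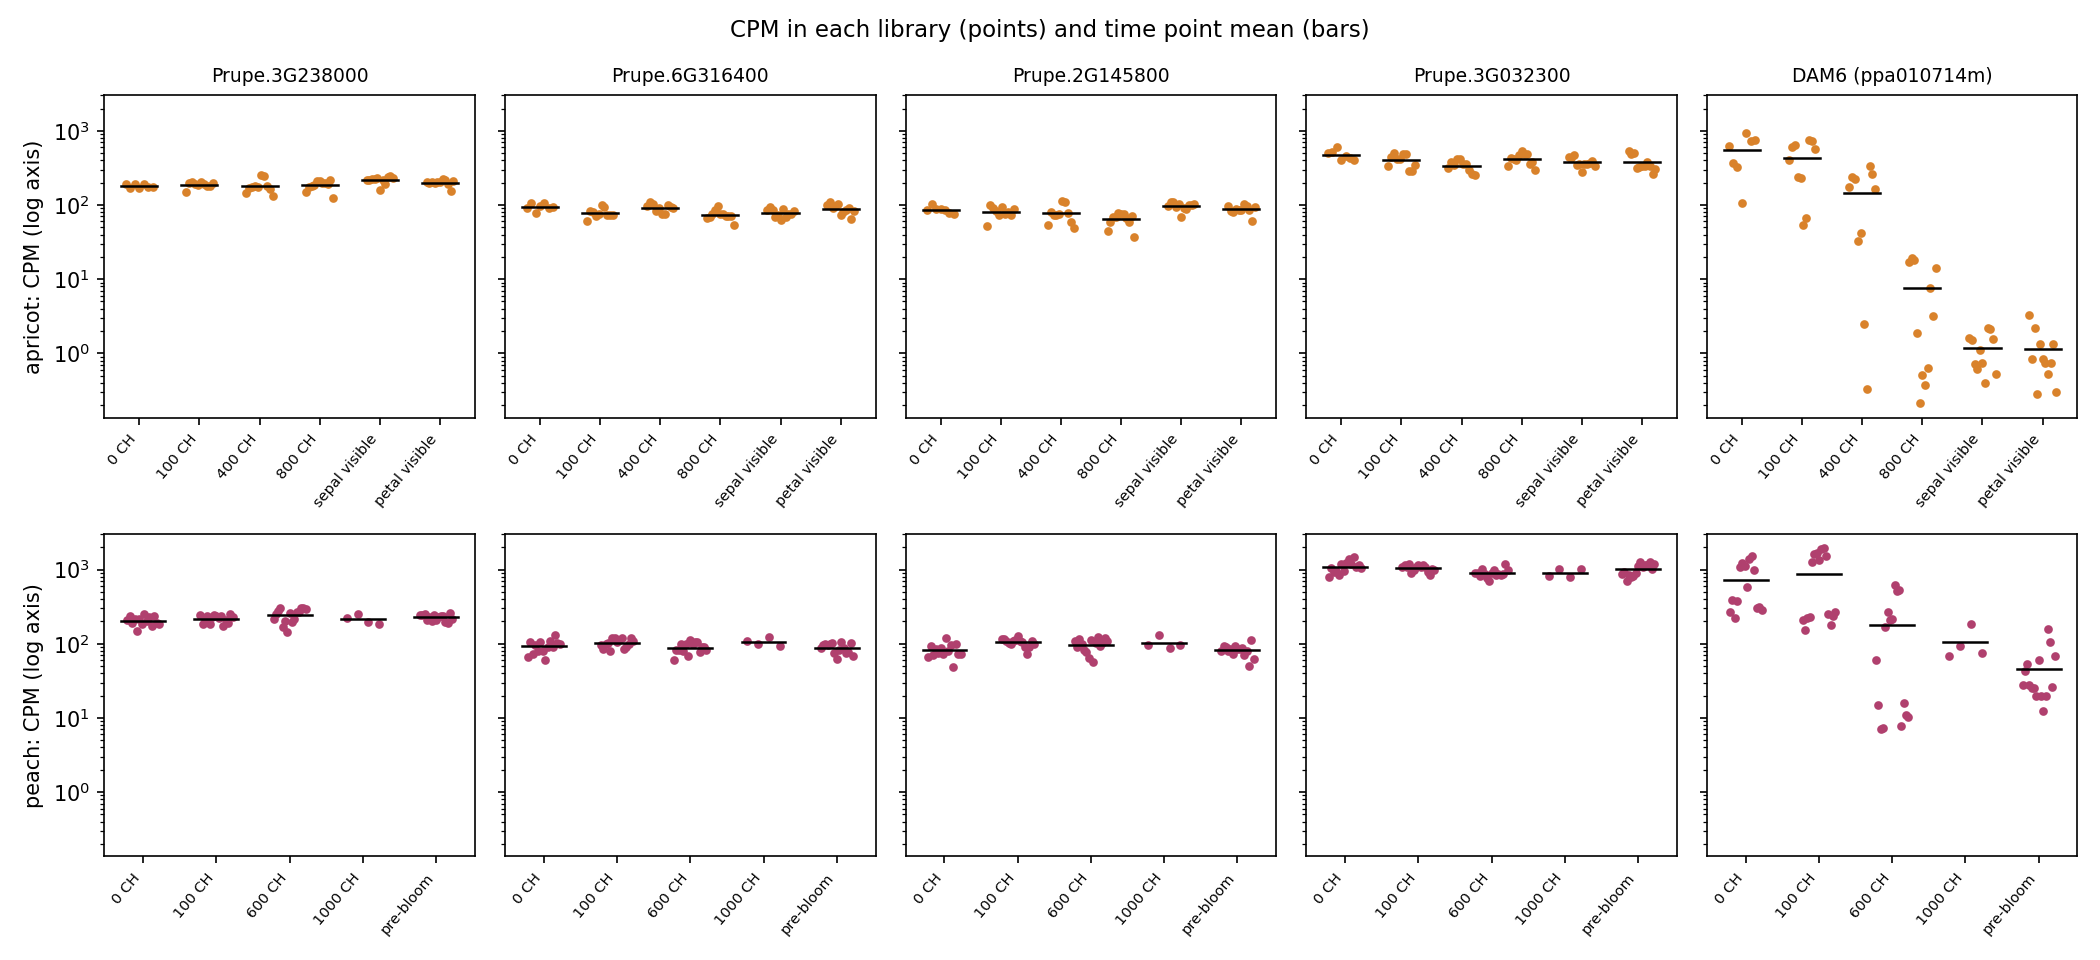
CPM (log axis) in each library (points) and time point mean (bars) for 4 members and for DAM6, with apricot in the upper row and peach in the lower. The members' points stay within 1 narrow band in each species, and Prupe.3G032300 lies higher in peach, at a mean of 1003 CPM against 393 CPM in apricot. The DAM6 points lie between 0.214 and 941 CPM in apricot and between 7.07 and 1930 CPM in peach.

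Across the members, the highest library was a median of 2.25 times the lowest in apricot and 2.64 times in peach, against 4.40 and 6.29 times for all genes past the floor. Every library lay within 2-fold of the species mean for 88 members in apricot, for 72 in peach and for 64 in both, and for 319 of the 7324 genes past the floor in both. Without the 3 libraries above, 83 members and 591 genes past the floor did so. These libraries were picked out by members lying over 2-fold away, so a higher count of members follows from leaving them out. Counting error alone gives a median CV of 0.0262 in apricot and 0.0372 in peach at the members' counts, so it made up a median of 2.04% and 3.44% of the squared CV. The lowest count of any member in any library was 85 in apricot and 35 in peach. Together the members took 1.01% to 1.46% of the counts of an apricot library and 1.11% to 1.66% of those of a peach library.

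Peach set the rank of most members. The CV was larger in peach for 71 of 100 members, and for 58.5% of the genes past the floor. Ranked within peach alone, the members had a median rank of 114 and none was beyond 227. Ranked within apricot alone, their median rank was 676.5 and their last rank 1303. Of the 100 lowest CVs of apricot alone, 9 belonged to members and 5 to genes also among the 100 lowest of peach, and of the peach 100, 46 belonged to members. The apricot 100 had a median CV of 0.289 in peach, and the peach 100 a median CV of 0.231 in apricot. Over the 7324 genes, the CVs of the species had a Spearman rho of 0.65, a description across genes, which share libraries and depth and are not independent replicates.

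The members' remaining variation was divided among time points, genotypes (with their time courses) and replicate libraries. In apricot, the median shares over the members were 41.3% for time, 36.5% for genotype and 18.9% for replicates, against 55%, 32.5% and 9.30% over all genes past the floor. In peach they were 18.2% for time, 23.2% for genotype and 55.1% for replicates, against 33.4%, 22.9% and 39.7%. The SD between replicate libraries had a median of 0.13 in apricot and 0.26 in peach on the log2 scale. By these medians the largest share was that of time points in apricot and of replicate libraries in peach. The shares were not adjusted for the numbers of libraries, groups and time points behind each part. They therefore do not show which source varied most.

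The members' time point means moved by small amounts, and in part as those of all genes past the floor did. TMM (the trimmed mean of M-values) rescales libraries so that the bulk of genes is level. At 0 CH in apricot, 86 members had a time point mean (the mean of the genotype means) above the species mean by library totals (57% of the genes past the floor), with a median log2 ratio of 0.16, but 42 with TMM (39.6%), with a median of −0.03. At 800 CH, 78 members lay below the apricot mean by library totals (62.7%) and 60 with TMM (54.5%). At petal visible, 47 lay above it by library totals (32.1%) and 78 with TMM (47.6%). In peach, 72 members lay below the species mean at 0 CH by library totals (63.1%), 58 with TMM (57.7%), and 59 by library totals without the 3 libraries (57.6%), so that both last counts were near those of the genes past the floor. At 100 CH, 64 lay above it by library totals (44.1%) and 82 with TMM (53.8%). The lowest apricot library was at 800 CH for 38 members (28.1% of the genes past the floor), 26 of them in A660 replicate 3, and the lowest peach library was at 0 CH for 60 members (45.6%), 21 in A318 replicate 1 and 18 in A323 replicate 1. Without the 3 libraries these counts were 22 (20.4%) and 29 (23.9%).

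**Figure D3:**
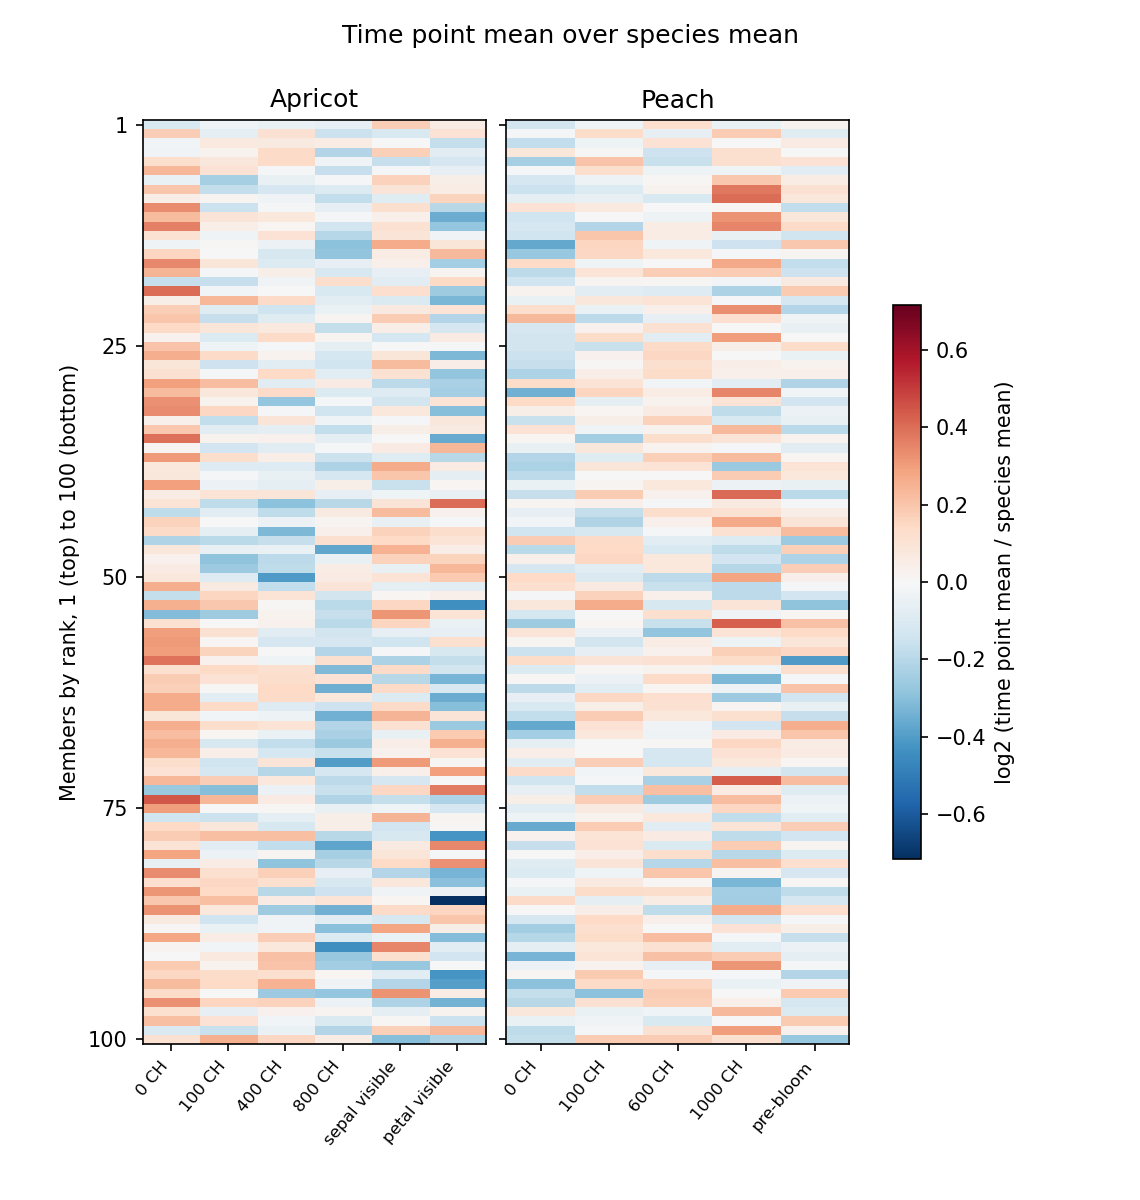
Log2 ratio of the time point mean to the species mean, by library totals, for the 100 members (rows, rank 1 at the top) at the apricot and peach time points (columns), from blue (below the species mean) to red (above). Apricot rows are red at 0 CH in 86 of 100 (42 lie above the mean there with TMM) and blue at 800 CH in 78 of 100, where 57% and 62.7% of the genes past the floor lie on the same sides, and the strongest single value is −0.72 at petal visible in apricot.

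That strongest value belonged to Prupe.8G162300, at rank 85. The members did not move as 1 block. Over the 60 apricot libraries, Pearson's r between log2 levels had a median of 0.24 over the 4950 pairs of members, with a range of −0.69 to 0.92, and over the 63 peach libraries a median of 0.27, with a range of −0.70 to 0.84. The most alike in apricot were Prupe.2G145800, Prupe.1G376700 and Prupe.3G038700, whose pairwise r was 0.90 to 0.92 in apricot and 0.12 to 0.60 in peach. The most alike pair in peach was Prupe.4G224800 and Prupe.7G157300 at 0.84. These correlations share libraries and library totals.

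The gene IDs of the peach annotation carry the chromosome and the order along it. The members lay on all 8 chromosomes, with 19 on chromosome 1, which holds 23.5% of the genes past the floor, 18 on chromosome 6 (14.4%), 12 each on chromosomes 3 and 4, 11 each on 7 and 8, 10 on chromosome 5 and 7 on chromosome 2. By the numbering, 17 members had another member within 10 genes, in 9 pairs, against 8.26% of the other 7224 genes past the floor. In the pair most alike in both species, Prupe.6G238700 and Prupe.6G239600, r was 0.83 in apricot and 0.71 in peach. Prupe.7G171700 and Prupe.7G172700 had r of −0.16 in apricot and 0.20 in peach.

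Few members could be named, since the deposited files carry IDs only and the annotated tables of the study list genes that moved with stage or bloom time. Those tables annotated 3 members, against 987 of the 7324 genes past the floor (13.5%). The closest Arabidopsis locus of Prupe.6G294000 (rank 90, 102 ± 22.2 CPM over the apricot libraries and 64.9 ± 13.9 CPM over the peach libraries, SD) encodes a transmembrane protein of the 14C family. That of Prupe.1G552200 (rank 96, 62.7 ± 12.5 CPM in apricot and 50.4 ± 11 CPM in peach) encodes a SPRY domain protein. For Prupe.3G212000 (rank 46, 93.1 ± 18.4 CPM in apricot and 96.9 ± 19.7 CPM in peach) the tables give the symbol PUX5, a UBX domain protein, beside a description as a B prime regulatory subunit of protein phosphatase 2A, and these do not name the same protein. Protein phosphatase 2A removes phosphate groups from serine and threonine residues, and another of its subunits is a common reference gene in Arabidopsis.

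Annotated genes of classic reference families were spread over the ranks, and 1 was a member. A list of Arabidopsis reference loci and family names matched 11 annotated genes past the floor, of which 6 ranked before the middle, 3662. Their median rank was 3569, against 4209 for all 987 annotated genes past the floor. The 1 member among the matched genes, Prupe.3G212000, was matched only by its description as a protein phosphatase 2A subunit, and not by its locus or symbol. ACT7 (Prupe.5G137100), an actin of the cytoskeleton, was at rank 2667 with CVs of 0.359 in apricot and 0.265 in peach. Both genes matched to TUB8, a beta tubulin of microtubules, were at ranks 4699 and 5232, with CVs of 0.351 and 0.383 in apricot and 0.497 and 0.563 in peach. UBC28 (Prupe.2G183100), a ubiquitin-conjugating enzyme, was at rank 4933 with 0.297 in apricot and 0.524 in peach. ROC3 (Prupe.8G161100), a cyclophilin that helps proteins fold, was at rank 4603 with 0.289 in apricot and 0.487 in peach. PTB2 (Prupe.2G308000), a polypyrimidine tract-binding protein of RNA processing, came closest after Prupe.3G212000, at rank 654 with 0.190 in apricot and 0.273 in peach. A cyclophilin-like gene, Prupe.1G408500, followed at rank 1364, and the cyclophilin CYP20-2 (Prupe.1G221800) was at rank 3725. The genes matched to UBC18, another ubiquitin-conjugating enzyme, Prupe.7G162600 and Prupe.1G373500, were at ranks 3159 and 3569. The annotated genes were listed because they varied, so these ranks say nothing of reference genes that the tables do not annotate.

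The rule held levels even within a species and did not set the ratio between species, beyond the floor. The ratio was tested in edgeR's quasi-likelihood framework with TMM factors, as the mean of the apricot groups against the mean of the peach groups. By this test 11 of 100 members differed by more than 2-fold (glmTreat, adjusted p below 0.05), against 34.7% of all genes tested and 24.1% of the genes past the floor. All 11 were lower in apricot, where 19% of all genes tested and 16.7% of the genes past the floor were called lower. By any change, 92 members differed, against 74.8% of all genes tested. With TMM 15 of them were higher and 77 lower in apricot (37% and 37.8% of all genes tested), and by library totals 87 differed (75.3% of all genes tested), 38 higher and 49 lower (47.2% and 28.1%). With genotype means of TMM-scaled log2 levels as the samples (limma, 4 against 4) 5 members passed 2-fold, against 22.9% of all genes tested. By these means 79 members did not overlap between species, against 63.5% of all genes tested and 67.5% of the genes past the floor. By library totals the genotype means of Prupe.3G238000 overlapped and those of Prupe.5G103800 did not, the reverse of the TMM result. Overlap by library totals was not counted.

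Prupe.3G032300 had the largest ratio. Its lowest, median and highest apricot libraries were at 252, 379 and 607 CPM, and its peach libraries at 700, 998 and 1457 CPM, so that no library overlapped. Its genotype means were 429, 416, 403 and 336 CPM in apricot A1267, A1956, A2137 and A660, and 958, 891, 1104 and 1037 CPM in peach A209, A318, A323 and A340. The edgeR log2 ratio with TMM was −1.75 ± 0.04 (SE from libraries within groups, adjusted p for 2-fold 4.62e-32). The CPM here are by library totals, so their ratio is a different one. Prupe.6G284800 had apricot libraries at 72.7, 158 and 219 CPM (lowest, median, highest) and peach libraries at 208, 319 and 501 CPM, with a log2 ratio of −1.53 ± 0.06 (edgeR with TMM, adjusted p 2.09e-14). Its ranges met between 208 and 219 CPM.

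Prupe.6G239600, Prupe.4G283100 and Prupe.1G172000 followed, with edgeR log2 ratios with TMM of −1.38, −1.33 and −1.28. The CPM given for single genes below are by library totals and do not yield these ratios. Prupe.4G283100 differed little between genotypes, with apricot genotype means of 61.7 to 66.9 CPM and peach genotype means of 119 to 125 CPM, while its libraries lay between 37.9 and 83.6 CPM in apricot and between 71.4 and 190 CPM in peach. On the other side, Prupe.8G162300 averaged 171 CPM in apricot and 89.4 CPM in peach by library totals. Its edgeR log2 ratio with TMM was 0.54 ± 0.04 and did not pass 2-fold. By library totals alone, 2 members passed 2-fold, Prupe.3G032300 and Prupe.6G284800, against 37.2% of all genes tested, and the median ratio of all genes tested was 0.25, against −0.14 with TMM. The members' median ratio was −0.08 by library totals and −0.50 with TMM, and the genes past the floor had 0.26 and −0.15, so that the members lay 0.33 and 0.35 below them under the 2 scalings. Species, orchard, read type (50 bp single-end in apricot, 150 bp paired-end in peach), the removal of ribosomal reads in peach and the mapping of apricot reads to the peach genome cannot be told apart in these ratios.

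**Figure D4:**
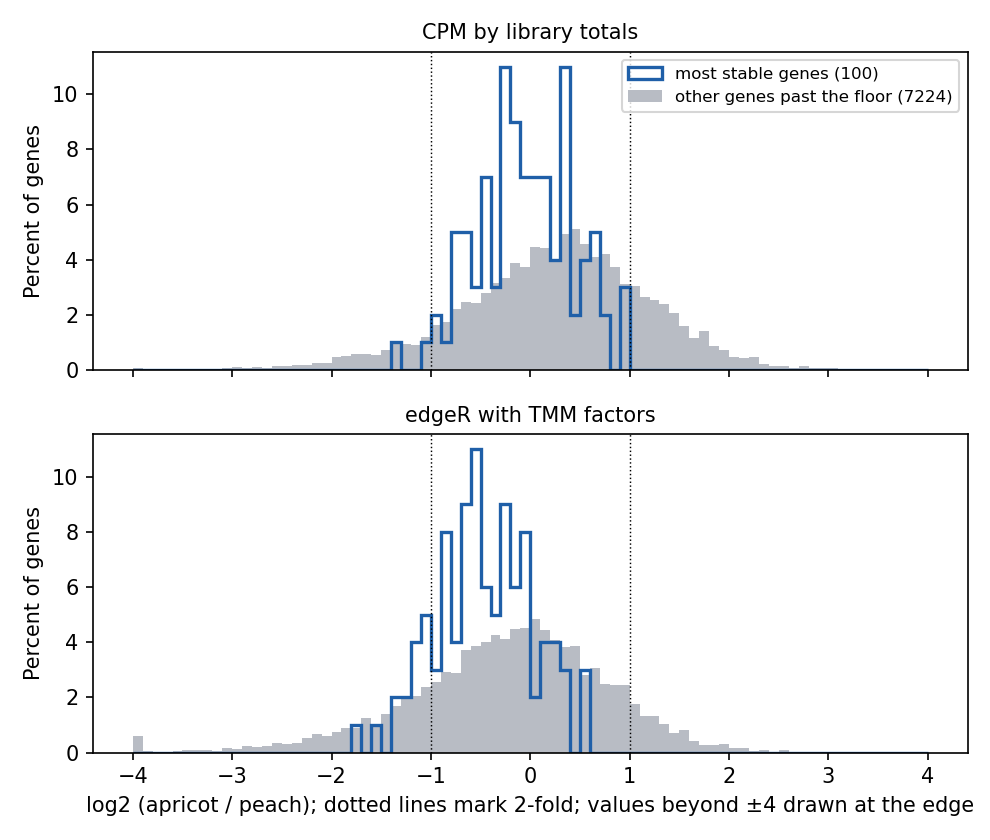
Log2 ratio of apricot to peach for the 100 members (blue outline) and the other 7224 genes past the floor (grey), as percent of each set, from the mean CPM (upper) and in edgeR with TMM factors (lower). Dotted lines mark 2-fold. The members' median is −0.07 by mean CPM and −0.50 with TMM, and their values run from −1.35 to 0.94 by mean CPM.

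The last stage before bloom was also set against early dormancy at 100 CH, a contrast of the sampled stages that is not among the study's own stage tests. Its libraries were used by the rule, so the members' part in it is a description. In apricot at petal visible against 100 CH, averaged over 4 genotypes, no member passed a 2-fold change in edgeR, against 33.3% of all genes tested. By any change, 78 passed, against 77.6% of all genes tested. With TMM 59 of them were higher and 19 lower at petal visible (39.2% and 38.4% of all genes tested), and by library totals 68 passed (79.1%), 28 higher and 40 lower (31.8% and 47.3%). The members' median absolute log2 change was 0.28, against 0.62 over the genes past the floor. The median change of all genes tested was −0.23 by library totals and 0.02 with TMM. In peach before bloom against 100 CH, no member passed 2-fold, against 12.3% of all genes tested, and 34 passed any change, 4 higher and 30 lower, against 49% (25.1% higher and 23.8% lower). With DESeq2's size factors in edgeR 35 passed any change (48.9% of all genes tested), 10 higher and 25 lower (27.2% and 21.6%), and by library totals 26 passed (44.7%), 9 higher and 17 lower (26.2% and 18.5%).

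For the members with the largest changes, levels are given at both stages, and their low CVs were set by the rule. Levels are by library totals and log2 changes are those of edgeR with TMM, so the changes are not the ratios of these levels. Prupe.1G528400 had 174, 203 and 232 CPM at petal visible (lowest, median and highest of 11 apricot libraries) and 100, 125 and 140 CPM at 100 CH (10 libraries), with no overlap, and a log2 change of 0.93 ± 0.05 (SE). In peach it had 78.6, 116 and 137 CPM before bloom and 64.9, 109 and 128 CPM at 100 CH, and these overlapped (log2 change 0.00 ± 0.11). Prupe.3G271000 and Prupe.4G224800 had log2 changes of 0.84 and 0.76 in apricot. In peach the largest change was that of Prupe.7G192100, with 81.9, 116 and 131 CPM before bloom and 128, 166 and 190 CPM at 100 CH (15 libraries each), a log2 change of −0.65 ± 0.12. In apricot the same gene had 63.9, 75.1 and 90.8 CPM at petal visible and 96.3, 116 and 133 CPM at 100 CH, with no overlap. Prupe.1G416100 and Prupe.5G092900 had −0.59 and −0.55 in peach.

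The 6 peach libraries with under 2000000 counts were not used by the rule, and give the members' levels in libraries that had no part in the choice. Each library was set against the mean of the kept libraries of its genotype and time point. Those kept libraries were used by the rule, so the ratios are not independent of the choice of members and are a description. The members' median absolute log2 ratio was 0.18 in A323 1000 CH replicate 4, 0.27 in A318 1000 CH replicate 3, 0.31 in A318 1000 CH replicate 2, 0.31 in A209 pre-bloom replicate 1, 0.35 in A318 1000 CH replicate 1 and 0.32 in A340 0 CH replicate 3. The genes past the floor had 0.33, 0.37, 0.48, 0.39, 0.45 and 0.32 in the same libraries. The members were closer to their group than the genes past the floor in 5 of these 6 libraries, and not closer in A340 0 CH replicate 3. The median count of a member there was 44 to 174.5, and counting error alone gives a median of 0.08 to 0.14 for the members. Genes past the floor had a lower median level in peach, 51.5 CPM against 101 CPM for the members, and so a larger counting error. Levels were not matched, and the part of level in the difference was not tested. In 5 of 6 libraries the members were low as a group, with a median log2 ratio of −0.25 to −0.33, where the genes past the floor had −0.14 to −0.29. With each library centred on the median of the genes past the floor, the members' median absolute log2 ratio was 0.20 to 0.28, and that of the genes past the floor 0.26 to 0.40, larger in all 6. The 3 libraries of A318 at 1000 CH were compared with 1 library.

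Which genes were the 100 most even depended on the measure and on the stages included. The list was ranked again under 17 other settings. A floor of 10 CPM kept 97 members, leaving out the flower libraries kept 93, using all libraries kept 91, leaving out the 3 libraries named above kept 87, and leaving out each replicate number in turn kept 75 to 89. Without all sepal visible, petal visible, flower and pre-bloom libraries, 50 were kept. Other measures of spread kept 77 (the SD of log2 levels), 57 (the mean of both species' CVs), 49 (the median absolute deviation over the median) and 39 (the CV over group means). With TMM 33 members were kept, and with DESeq2's size factors 29. The lists made with these scalings shared 74 genes with each other, and 28 members were in both. The TMM factors, relative to their mean within a species, ran from 0.784 to 1.19 in apricot and from 0.579 to 1.31 in peach, and averaged 1.14 at 0 CH and 0.850 at petal visible in apricot. The fixed members kept a median CV of 0.174 in apricot and 0.197 in peach with TMM, while the value at rank 100 was 0.198 with TMM, against 0.220 by library totals. With TMM, 67 members were within the first 500 of 7262 genes.

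**Figure D5:**
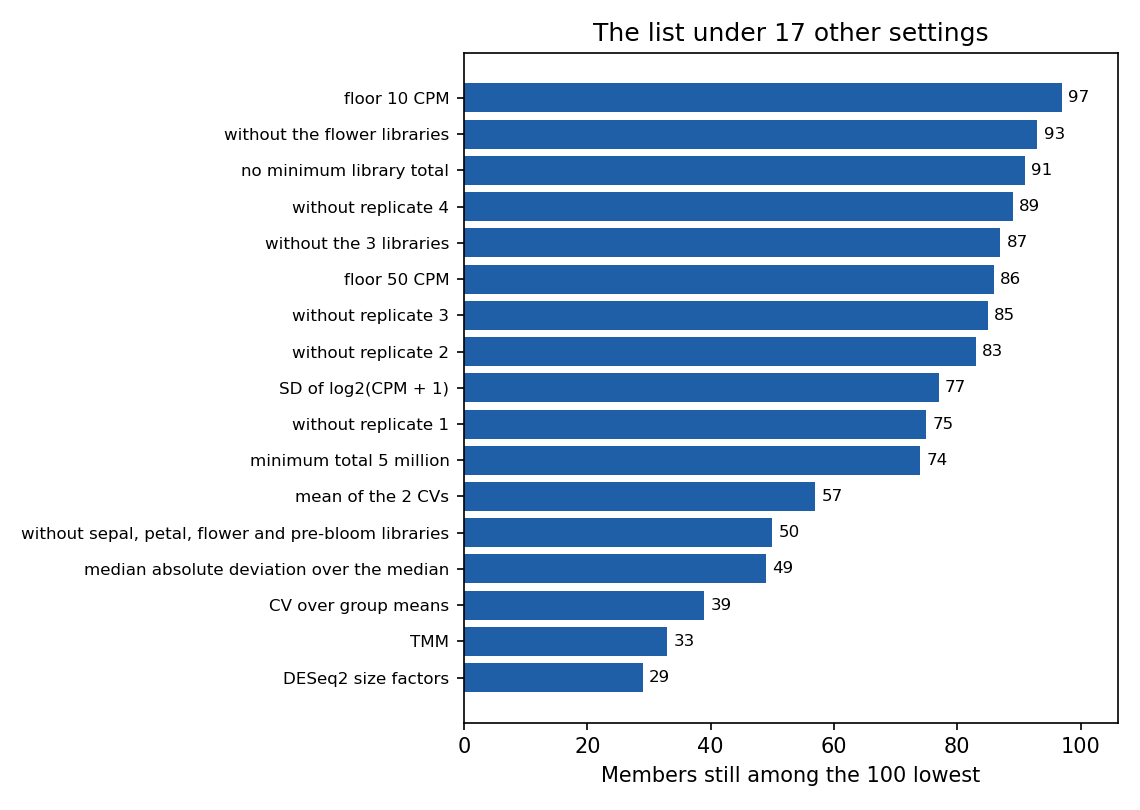
Number of the 100 members still among the 100 lowest under each of 17 other settings (bars start at 0). The shortest bars are those of the scalings, 29 with DESeq2's size factors and 33 with TMM, and the longest is 97 for a floor of 10 CPM.

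In all 17 settings, 5 members were kept, Prupe.7G224200 (rank 6), Prupe.6G068000 (rank 8), Prupe.4G283100 (rank 25), Prupe.8G036700 (rank 28) and Prupe.7G157300 (rank 58). They were picked out after their values were seen. Prupe.7G224200 lay between 107 and 197 CPM in apricot libraries and between 70.6 and 167 CPM in peach libraries, and Prupe.6G068000 between 60.2 and 136 CPM in apricot libraries and between 48.6 and 113 CPM in peach libraries. A member was kept in a median of 12 of the 17 settings, and 84 members in more than 50% of them.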

How the data were processed

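Counts of reads per gene were deposited by the authors, 1 table per library. Per the study's methods, reads were trimmed with skewer, ribosomal reads were removed in peach, STAR 2.5.3a aligned both species to the Prunus persica v2.0 genome, and HTSeq-count counted exons, with the DAM genes taken from the v1.0 genome. The strand setting and the handling of reads that match several genes were not given in the sources used here, so genes with near-identical copies may share reads.

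From these, CPM by library totals, CVs and ranks were computed in Python 3.11.15 with pandas 2.3.3. Genotype by time point groups were fitted in edgeR 4.0.16 (glmQLFit, TMM, filterByExpr with a minimum count of 10, Benjamini-Hochberg adjustment over all genes tested, threshold 0.05), and tested with glmQLFTest and glmTreat at 2-fold. Limma 3.58.1 and DESeq2 1.42.0 were alternatives, in R 4.3.3. The fits were tested on simulated data. Parts of the variation are sums of squares of log2(CPM + 0.5). Replicate numbers were not used to pair libraries in the main fits, and the labels do not say whether they name the same tree at each time point.

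The members, gene lists and tests were chosen with earlier results of these data known. Members named are the first 10, the 5 with the highest CPM, the 5 largest ratios between species, the 3 largest changes in each stage comparison, those nearest the threshold and annotated ones. Others were named after their values were seen. Of the effects of depth, only the counting error beside the CVs was computed. Some libraries with few counts were low in the members as a group, as peach A209 600 CH replicate 1 (5268287 counts, median log2 ratio to the species mean −0.40). Others were not, as peach A323 1000 CH replicate 2 (2209680 counts, 0.08). Any further part of depth in the CVs and ranks was not tested.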

Additional observations from a re-analysis of the deposited data

Results flagged for a closer look

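In peach A209 at 100 CH, the members took 1.38% of the counts of replicate 2, against 1.54%, 1.54% and 1.57% in the other 3 libraries of that group, a gap wider than Dixon's test allows for 4 samples. This library had 3007883 counts, against 18297696 to 19497771 in the others, and the part of depth in the difference was not tested. Of the 22 groups so tested, chance flags about 1 in 20.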

How the results depend on the processing

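Of the 100 members, TMM kept 33, DESeq2's size factors 29, a CV over group means 39, the median absolute deviation over the median 49, libraries before sepals were visible alone 50 and the mean of the 2 CVs 57, and leaving out a replicate number kept 75 to 89. The members' median CV in apricot was 0.174 with TMM and 0.174 to 0.184 without a replicate number. In peach it was 0.183 at a minimum of 5000000 counts, 0.193 without the 3 libraries (chosen after seeing the data) and 0.182 to 0.205 without a replicate number. Members past 2-fold between species numbered 2 by library totals, 5 in limma on genotype means (chosen after seeing the data) and 9 to 11 without a replicate number. Members called for any change numbered 61 to 75 in apricot and 26 to 44 in peach without a replicate number. With the replicate number as a block they numbered 80 in apricot and 33 in peach. Same-numbered libraries of the compared stages deviated together (r above 0.1) in 1 of 10 pairs in apricot and 0 of 14 in peach. These correlations cannot show whether the same trees were sampled at both stages. No setting brought a member past 2-fold in a stage comparison, but the rule chose members for low CVs over these same libraries, so this is no test of stability. The causes were not tested.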
